A study of Mus musculus with 16 samples.

Results

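In mouse muscle cells, 4638 merged regions of the genome held peaks of MyoD, c-Jun and MyoG and no peak of RUNX1. They were chosen by the presence of peaks in 4 deposited lists from chromatin immunoprecipitation and sequencing (ChIP-seq), 1 list per transcription factor. Peaks on chromosomes 1 to 19 that shared at least 1 bp were merged, which gave 97753 regions in all, and the 4638 make up 4.74% of them. They are called the RUNX1-free shared regions below. The name means only that no peak of the RUNX1 list, which comes from myoblasts, overlaps them. Presence and absence of a peak set the membership, so neither is a finding here.

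All cells were primary cultures of satellite cells, from which muscle fibres are repaired, taken from the gastrocnemius of wild-type C57BL/6 mice aged 2 to 3 weeks. MyoD, c-Jun and RUNX1 were each precipitated from myoblasts dividing for 3 days on Matrigel. MyoG was precipitated after 24 hours more in differentiation medium, which holds little serum and added insulin, so the MyoG list describes young myotubes. Each factor had 2 ChIP libraries, described as biological replicates, and 2 controls, which makes 16 samples in 8 groups. The controls were mouse IgG for MyoD and for MyoG, rabbit IgG for c-Jun and non-immune rabbit serum for RUNX1. The number of animals behind a culture is not stated in the labels. The deposited lists do not separate the libraries and hold no read counts, so neither a spread between cultures nor the depth is known, and no test over samples could be run. The controls have no values in these lists and were not analysed here. The list taken as MyoG carries an abbreviated name and was assigned by elimination. MyoG differed from the other lists in factor and in cell stage at once, and these cannot be told apart.

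MyoD and MyoG are basic helix-loop-helix factors that bind E-box sequences together with E proteins. MyoD specifies the muscle lineage and is present in dividing myoblasts, whereas MyoG is switched on at the start of differentiation and drives myoblasts towards fusion. c-Jun is a subunit of AP-1, a leucine-zipper dimer that is active in growing cells and has been described as a brake on myogenic differentiation. RUNX1, a runt-domain factor, binds DNA with its partner CBFB and is raised in damaged or denervated muscle.

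Each deposited peak carries a score written by the authors' peak caller. It starts at 50.01 in every list and many strong peaks sit at 3100, called the ceiling here, although a few lie above it, up to 3233. The scale is defined neither in the files nor in the labels, so scores are set side by side only within 1 list. A region's score for a factor is that of its highest-scoring peak. Where the text gives a range over chromosomes, it runs from the lowest to the highest of 19 chromosome values. It shows how steady a value is along the genome, not how it varies between animals.

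**Figure D1:**
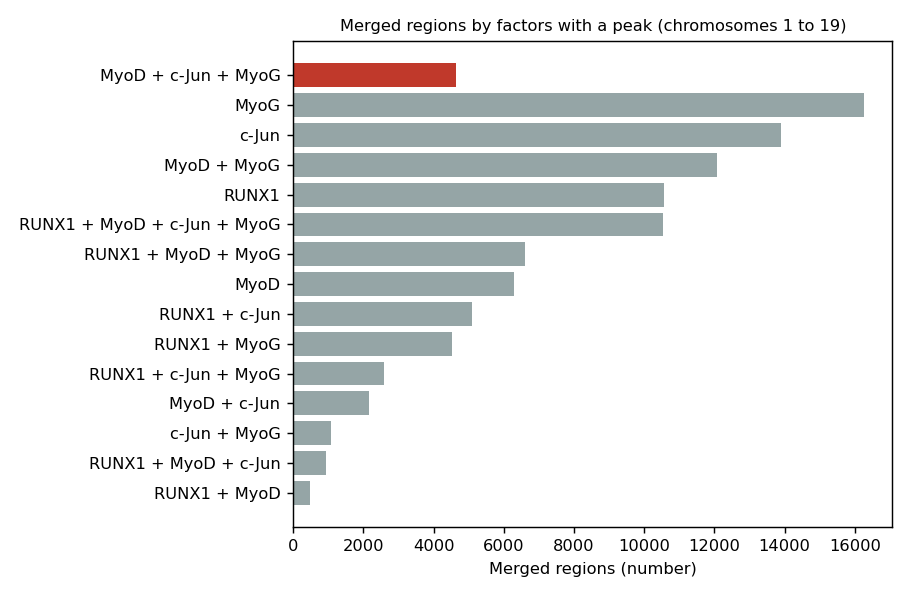
Number of merged regions on chromosomes 1 to 19 for each of the 15 sets of factors (bars, from 0). The red bar is the 4638 regions with MyoD, c-Jun and MyoG and no RUNX1, and the grey bars are the other sets in order of size, among them 10532 regions with all 4 factors.

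The RUNX1-free shared regions ranked 9 of 15 sets by number. They made up 30.6% of the 15170 regions with MyoD, c-Jun and MyoG, and the other 10532 also held RUNX1. The share ran from 26.0% on chromosome 17 to 37.7% on chromosome 3. Among the 43744 regions with MyoD, the RUNX1-free shared regions were 10.6%. Chromosome 2 held the most, 379, and chromosome 19 the fewest, 130. Per megabase of the mm9 chromosomes there were 1.88 of them, from 1.62 on chromosome 12 to 2.38 on chromosome 15.

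Most of these regions were small and simple. The width ran from 707 to 3631 bp with a median of 1187 bp, and 94.5% (4382 of 4638) held exactly 1 peak of each of the 3 factors. Regions with all 4 factors had a median width of 1547 bp, and 80.1% of them held exactly 1 peak each of MyoD, c-Jun and MyoG. The RUNX1-free shared regions had the lower median width on 19 of 19 chromosomes. They took in 4752 MyoD peaks (10.5% of that list on these chromosomes), 4654 c-Jun peaks (11.2%) and 4838 MyoG peaks (7.87%). Chaining through a bridging peak was rare. In 4562 of the regions (98.4%) at least 1 base lay in a MyoD, a c-Jun and a MyoG peak at once, and this common stretch had a median length of 610.0 bp.

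MyoD and MyoG centres lay close together, and c-Jun lay a little farther off. The distance between the centres of the strongest MyoD and MyoG peaks had a median of 49 bp, with chromosome medians from 40.25 to 57.5 bp, and 89.4% of regions had them within 150 bp. Between MyoD and c-Jun the median was 90.0 bp, with chromosome medians from 78 to 112.8 bp, and 67.6% lay within 150 bp. Between c-Jun and MyoG it was 87.5 bp, with chromosome medians from 76 to 103.5 bp. MyoD and MyoG formed the closest of the 3 pairs in 53.6% of the regions, MyoD and c-Jun in 23.0%, and c-Jun and MyoG in 23.0%. The c-Jun centre lay at a lower coordinate than both helix-loop-helix centres in 1909 regions, at a higher one in 1784 and between them in 945. The c-Jun peaks were the broadest, with a median width of 1118 bp, against 879 bp for MyoD and 651 bp for MyoG. A centre of a broad peak is less exact, and its part in the longer c-Jun distances was not tested.

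All 3 distances were shorter than in regions with all 4 factors. The MyoD to MyoG medians were 49 bp in RUNX1-free shared regions and 61.5 bp in regions with all 4 factors, and the MyoD to c-Jun medians were 90.0 bp and 129.5 bp. The c-Jun to MyoG medians were 87.5 bp and 128.5 bp. Each was lower in the RUNX1-free shared regions on 19 of 19 chromosomes. All 3 centres lay within 150 bp of each other in 58.9% of the RUNX1-free shared regions (2733) and in 43.2% of the regions with all 4 factors. Against regions with MyoD and MyoG alone, which had a median of 48.5 bp, the MyoD to MyoG distance was higher on 12 chromosomes and lower on 7. The MyoD to c-Jun median was 105 bp in regions with MyoD and c-Jun alone, which also lack RUNX1. It was lower in the RUNX1-free shared regions on 16 chromosomes and higher on 3. Region widths were also lower than in regions with all 4 factors, as given above, and their part in the difference from that set was not tested. Keeping only regions whose 3 centres lay within 150 bp took the MyoD to c-Jun median to 49 bp by construction.

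**Figure D2:**
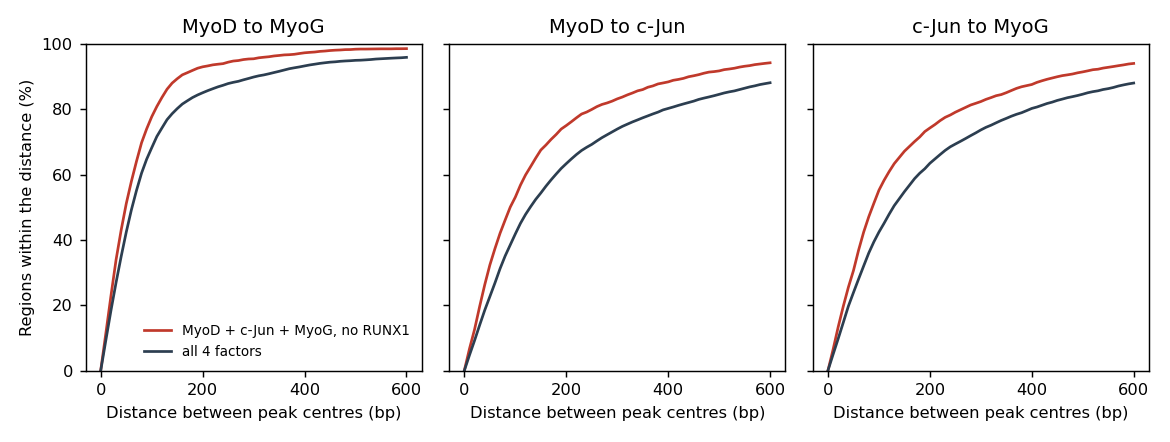
Cumulative share of regions (%) whose peak centres lie within the distance on the x axis (bp), for MyoD to MyoG, MyoD to c-Jun and c-Jun to MyoG. The red line, RUNX1-free shared regions, lies above the dark line, regions with all 4 factors, in each panel, and the MyoD to MyoG curve is the steepest, with a median of 49 bp for the red line.

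The regions stood at different places in the lists of the 3 factors. In myoblasts, the MyoD score ran from 50.11 over a median of 314 to 3217, and the median region stood at percentile 66.1 of the whole MyoD list. The c-Jun score ran from 50.02 over a median of 175 to 3100, at percentile 50.6 of its list. In myotubes, the MyoG score ran from 50.02 over a median of 256 to 3221, at percentile 58.3. MyoD was thus placed above the middle of its list, and c-Jun near the middle. A percentile also depends on how many weak peaks a list holds, so these places do not rank the factors by strength.

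Few of the regions were strong for every factor. MyoD stood at or above percentile 75 of its list in 1719 regions (37.1%), MyoG in 1302 (28.1%) and c-Jun in 1082 (23.3%), and in 280 (6.04%) all 3 did. Of the regions with all 4 factors, 21.5% had MyoD, c-Jun and MyoG at or above that percentile. At the ceiling or above were MyoD in 80 RUNX1-free shared regions (1.72%), c-Jun in 18 (0.388%) and MyoG in 17 (0.367%). In the whole lists, 880 of 45951 MyoD peaks, 322 of 42134 c-Jun peaks and 774 of 62456 MyoG peaks stood there. At the weak end, 121 (2.61%) had a MyoD score under 60, 238 (5.13%) a MyoG score under 60 and 380 (8.19%) a c-Jun score under 60. The shares of the whole lists under 60 were not counted.

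Scores of all 3 factors were lower than in regions with all 4 factors. The median MyoD scores were 314 in RUNX1-free shared regions and 529.7 in regions with all 4 factors, a ratio of 0.593 (0.485 to 0.810 over chromosomes). The median c-Jun scores were 175 and 324, a ratio of 0.540 (0.427 to 0.673). For MyoG the medians were 256 and 703, a ratio of 0.365 (0.306 to 0.445). Each ratio lay below 1 on 19 of 19 chromosomes. As percentiles of the factor's own list, the median regions stood at 66.1 in RUNX1-free shared regions and 77.4 in regions with all 4 factors for MyoD, at 50.6 and 68.7 for c-Jun, and at 58.3 and 81.2 for MyoG. A score is the caller's own value and need not rise in proportion to occupancy, so the ratios do not measure bound protein and are not ranked between factors. In the stronger 50% of each list the MyoG ratio was 0.579. It was 0.464 with a score minimum of 100 and 0.475 without ceiling peaks and the widest 1%. The other alternatives stayed nearer to 0.365.

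The MyoD score was higher than in each set of regions that held MyoD with 1 or 2 other factors and was compared here. MyoD had a median score of 314 in RUNX1-free shared regions and of 140.1 in regions with MyoD and MyoG alone, a ratio of 2.24 and higher on 19 of 19 chromosomes. Against regions with MyoD and c-Jun alone, where the median MyoD score was 112, the ratio was 2.80 and again higher on 19 of 19. Against the set with RUNX1, MyoD and MyoG but no c-Jun, MyoD had medians of 314 in RUNX1-free shared regions and 213 in that set (ratio 1.47), and against the set with RUNX1, MyoD and c-Jun but no MyoG, medians of 314 and 104 (ratio 3.01). Both were higher on 19 of 19 chromosomes. MyoG and c-Jun scores depended on the set they were compared with. MyoG had medians of 256 in RUNX1-free shared regions and 237 with MyoD and MyoG alone (ratio 1.08, higher on 15 and lower on 4 chromosomes). c-Jun had medians of 175 in RUNX1-free shared regions and 157 with MyoD and c-Jun alone (ratio 1.11, higher on 14 and lower on 5). MyoG had medians of 256 in RUNX1-free shared regions and 597 in the set with RUNX1, MyoD and MyoG (ratio 0.429, lower on 19 of 19). Against the set with RUNX1, MyoD and c-Jun but no MyoG, c-Jun had medians of 175 in RUNX1-free shared regions and 315 in that set, a ratio of 0.554 and lower on 19 of 19 chromosomes.

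**Figure D3:**
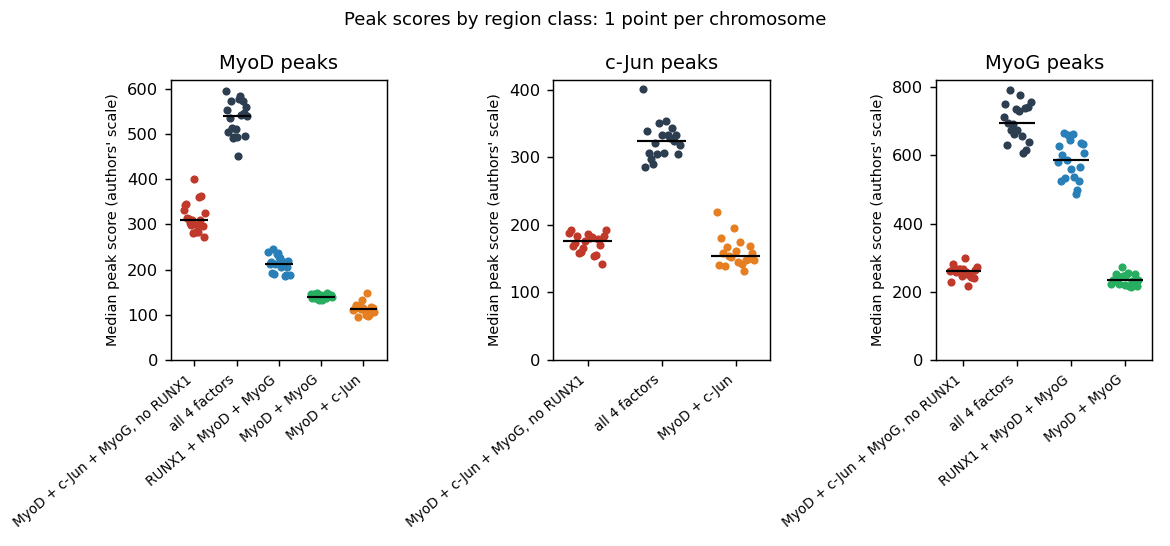
Median peak score on the authors' scale (y axis, from 0) for MyoD, c-Jun and MyoG in each region class, with 1 point per chromosome (19 per class) and a black line at the median of the points. RUNX1-free shared regions (red, left) lie below regions with all 4 factors in each panel, and above regions with MyoD and MyoG alone for MyoD.

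Within the RUNX1-free shared regions, the MyoG score went with the MyoD score and little with the c-Jun score. In 5 equal classes of the MyoD score, from the lowest to the highest, the median MyoG score was 140.7, 182, 253, 376 and 648. The median c-Jun score in the same classes was 141, 136, 154, 197 and 291. In 5 equal classes of the c-Jun score, from the lowest to the highest, the median MyoG score was 241, 253, 246, 254 and 286, and the median MyoD score was 231, 273, 290.4, 385 and 518. Across the 4638 regions, which share libraries, Spearman's rho was 0.45 between MyoD and MyoG scores, 0.22 between MyoD and c-Jun scores and 0.04 between c-Jun and MyoG scores. These correlations are descriptions across regions, and regions are not replicates.

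Within a MyoD class, the highest c-Jun class had the lower MyoG median in 3 of 5 cases by a wide margin. In MyoD class 1, the median MyoG score was 103 in the 123 regions of the highest c-Jun class and 169.8 in the 229 regions of the lowest c-Jun class. In MyoD class 3 the medians were 197 in the highest and 299 in the lowest c-Jun class, and in MyoD class 4 they were 308 and 493 in the same order. In MyoD class 2 they were level, at 180.41 and 180.43. In MyoD class 5 the order was the other way, with 701.5 in the highest and 639.95 in the lowest c-Jun class.

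MyoG scores were then compared between region sets at a matched MyoD score. Regions with MyoD and MyoG were cut into 10 classes of the MyoD score, whatever else they held. The median MyoG score of the RUNX1-free shared regions was below that of regions with all 4 factors in 10 of 10 classes. In the lowest class (MyoD scores from 50.01 to 71.72) it was 133 in RUNX1-free shared regions and 181 in regions with all 4 factors. In class 5 the values were 196 and 362, and in the highest class 812 and 1843. A class spans a range of MyoD scores, from 1426 to 3233 in the highest. The MyoD scores of the sets within a class were not compared. The median of the 10 ratios was 0.516. It lay below 1 on 19 of 19 chromosomes, from 0.443 to 0.618, where classes with under 5 regions of either set on a chromosome were left out.

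The set with RUNX1, MyoD and MyoG but no c-Jun had the highest MyoG scores at a matched MyoD score. The RUNX1-free shared regions had from 0.334 to 0.486 of its median over the 10 classes. Regions with MyoD and MyoG alone came closer. Their median MyoG score was above that of the RUNX1-free shared regions in 9 of 10 classes, and the median ratio of RUNX1-free shared regions over them was 0.803 (0.666 to 0.922 over chromosomes). In the highest class the RUNX1-free shared regions were slightly above, at 812 against 784. Thus the order of the medians over classes 1 to 9 was the RUNX1-free shared regions, MyoD with MyoG, all 4 factors, and RUNX1 with MyoD and MyoG, from low to high.

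**Figure D4:**
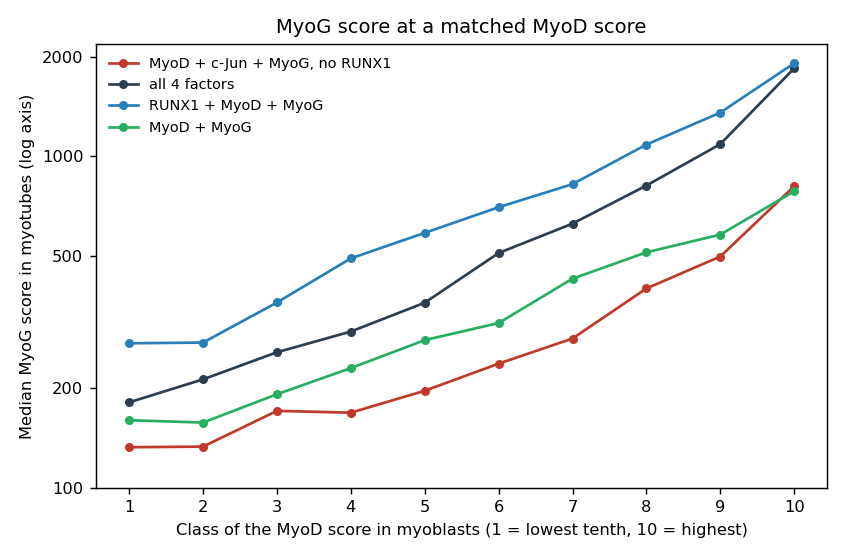
Median MyoG score in myotubes (y axis, log scale) in 10 classes of the MyoD score in myoblasts (x axis, low to high) for 4 sets of regions. The red line, RUNX1-free shared regions, is the lowest in classes 1 to 9, and both lines with RUNX1 lie above both lines without it in each class.

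Matching on c-Jun as well, in broader classes of the MyoD score, left the gap to regions with all 4 factors in place. In 25 classes, made of 5 classes of the MyoD score by 5 of the c-Jun score, the median MyoG score was lower in the RUNX1-free shared regions in 25. The ratio ran from 0.378 to 0.668, with a median of 0.478, and no class had fewer than 66 RUNX1-free shared regions or 214 regions with all 4 factors. MyoD and c-Jun scores can still differ between the sets within these broader classes, and this was not compared. Regions with all 4 factors are also wider and hold more peaks, and the part of either in the gap is not separated here by the score classes. Among regions with exactly 1 peak of each factor present, the ratio of the medians at a matched MyoD score was 0.551, against 0.516 in all regions.

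In regions with all 4 factors, the scores of MyoD, c-Jun and MyoG rose together over classes of the RUNX1 score. The median MyoG score was 256 in the RUNX1-free shared regions, and in 5 equal classes of the RUNX1 score of regions with all 4 factors, low to high, it was 453, 586, 687, 800.5 and 1174. The median MyoD score was 314 without RUNX1 and 406, 484, 506, 582 and 762 over the same classes. For c-Jun it was 175 without RUNX1 and 243, 271, 298, 385 and 498. The widths also moved, with medians of 1187 bp without RUNX1 and 1350.0, 1443, 1522.5, 1679.5 and 1841 bp. The MyoG scores were not matched on the MyoD score here. The part of the width, or of the other scores, in each rise was not tested.

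The rule has a score limit and a distance limit, and each has its own edge. Just outside the score limit lay 405 regions with all 4 factors whose RUNX1 score was under 60, from 50.06 to 59.99. Their median scores were 393 for MyoD, 221 for c-Jun and 391 for MyoG. Just inside the distance limit lay 35 RUNX1-free shared regions with a RUNX1 peak at most 100 bp away. Their medians were 264 for MyoD, 125 for c-Jun and 230.2 for MyoG. Those RUNX1 peaks scored from 55.25 over a median of 179 to 1646, so these regions are not the other side of the score limit, and the sets are not compared. A missing peak shows only that the caller reported none, and RUNX1 binding too weak to be called at this unknown depth would look the same. If RUNX1 peaks with a score under 100 counted as absent, 6270 regions would qualify.

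About as many of the regions had a RUNX1 peak within 10 kb as had none, which was between the values of the other sets without RUNX1. The gap from a RUNX1-free shared region to the nearest RUNX1 peak had a median of 9934.5 bp, with chromosome medians from 6470 to 13330 bp. A RUNX1 peak lay within 1 kb of 461 of the regions (9.94%), within 10 kb of 2327 (50.2%; 42.7% to 64.0% over chromosomes) and within 100 kb of 4306 (92.8%). The share within 10 kb was 55.2% for regions with c-Jun and MyoG alone, 54.8% for MyoG alone and 53.1% for MyoD and MyoG alone. It was 43.5% for c-Jun alone, 42.3% for MyoD and c-Jun alone and 40.9% for MyoD alone. The chromosome ranges of these shares overlapped. MyoG and MyoD scores changed little with the gap. The median MyoG score was 259 in regions with RUNX1 within 1 kb and 273 with RUNX1 at 1 to 10 kb. It was 241 in the 2311 regions with none within 10 kb. The median MyoD scores were 294, 307 and 327 in the same order. The median c-Jun scores were 154, 178 and 175, lowest with RUNX1 within 1 kb.

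**Figure D5:**
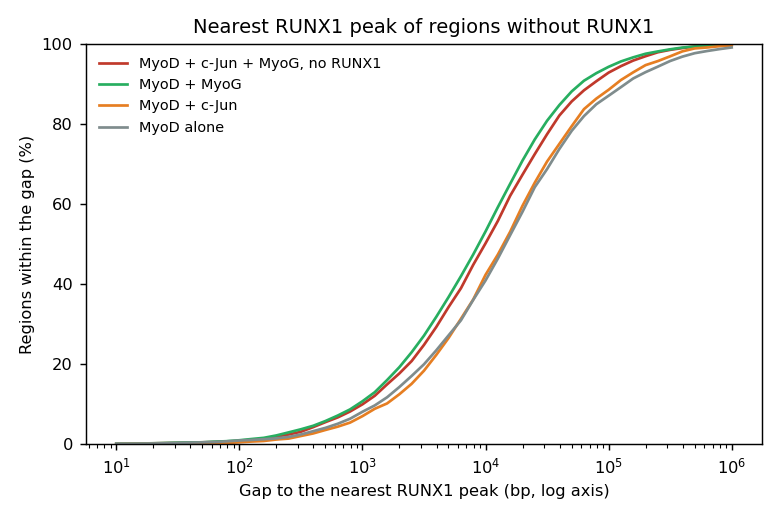
Cumulative share of regions (%) with a RUNX1 peak within the gap on the x axis (bp, log scale), for RUNX1-free shared regions (red) and 3 of the 6 other sets without RUNX1. The red line crosses 50.2% at 10 kb and runs between regions with MyoD and MyoG alone, at 53.1%, and regions with MyoD and c-Jun alone, at 42.3%.

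Single regions show what these numbers stand for. Positions are on the mouse build mm9, counted from 1, and the genes around them were not identified here. Regions were ordered by the worst of their ranks in the MyoD, c-Jun and MyoG lists, where rank 1 is the strongest peak. The 10 best each held 1 peak of each of these factors. The first, chr7:108686025-108687955, had scores of 3100 for MyoD, 2896 for c-Jun and 2512 for MyoG, and its nearest RUNX1 peak lay 33514 bp away. At chr15:23511088-23512312 and chr11:43732485-43734345, MyoD and c-Jun were both at the ceiling of 3100, with MyoG scores of 2429.63 and 2346. The region chr13:10635646-10636934 had scores of 3100, 2649 and 2322 for MyoD, c-Jun and MyoG, and its MyoD and c-Jun centres were 21.5 bp apart. Also with MyoD at the ceiling, chr2:17312406-17313851 had a c-Jun score of 1451 and lay 205145 bp from the nearest RUNX1 peak.

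The other 5 of this set were less uniform. At chr10:86234568-86235946, c-Jun scored 2439 and MyoG 2793, both at a higher percentile of their lists than MyoD, which scored 1959.63. A RUNX1 peak at the ceiling of 3100 lay 4935 bp from it. The region chr2:78870809-78871914 had its 3 centres within 34 bp and scores of 2602 for MyoD, 1315 for c-Jun and 2529.63 for MyoG. In contrast, the c-Jun centre of chr9:110582817-110585036 lay 614.5 bp from that of MyoD, and a RUNX1 peak with a score of 1015 lay 462 bp beyond the region's edge. The last pair were chr1:137431448-137433629, with a MyoG score of 1746, and chr19:55667324-55669355, with one of 1681.

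Some regions stood at the edge of the RUNX1 rule or far from it. The smallest gaps to a RUNX1 peak were 3 bp at chr5:36054735-36056001, 7 bp at chr6:83361697-83363168 and 11 bp at chr14:35009027-35010547, where the RUNX1 scores were 375, 116 and 419. These 3 regions had MyoG scores of 942, 1159 and 1466. The largest gaps were 1660685 bp at chr1:125125635-125126620, 1425395 bp at chr2:82057634-82058803 and 1420927 bp at chr18:29010110-29011150. Here MyoG scored 243, 97.5 and 283. These values describe the regions and set no rule for the rest, where Spearman's rho between gap and MyoG score was -0.05.

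The balance of c-Jun and MyoD spanned the whole scale. The regions with the largest percentile of c-Jun relative to MyoD were chr1:58415890-58417176, chr10:24781106-24782454 and chr11:8479328-8480592. Their c-Jun scores were 1893, 1606 and 1583, whereas MyoD scored 51.94, 50.46 and 51.15, near the lowest score of its list. The MyoG scores there were 53.0, 86.1 and 168, at percentiles 3.03, 23.3 and 46.4 of the MyoG list. At the opposite end, chr11:99846531-99848229 had MyoD and MyoG both at 3100 and c-Jun at 53.49. The regions chr7:99657462-99658291 and chr4:139396595-139397509 had MyoD scores of 2529 and 2278 with c-Jun scores of 52.29 and 52.02, but their MyoG scores differed, at 1079.68 and 73.9.

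Regions with several peaks were few. The only one with 6 peaks, chr7:125622008-125625638, was also the widest, with 3 MyoD, 1 c-Jun and 2 MyoG peaks, and its strongest MyoD and c-Jun centres lay 1472.5 bp apart. Next by rule came chr1:15594593-15596823 and chr1:43754902-43756684, with 5 peaks each. Both had 2 MyoD, 1 c-Jun and 2 MyoG peaks.

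Along the genome, the regions were mostly scattered. The gap to the nearest other RUNX1-free shared region had a median of 95144.5 bp, and 10.0% (466) had another within 10 kb. Windows of 100 kb with at least 1 of them numbered 3803, of which 3104 held exactly 1 and 116 held 3 or more. No RUNX1 peak was centred in 637 of these windows (16.7%), and the share over all windows of the genome was not counted. The fullest windows held 5 each. One was chr10:21300001-21400000, with 2 RUNX1 peaks, and the other chr1:43400001-43500000, with 1 RUNX1 peak. Of the 16 windows with 4, those with the highest summed MyoD scores were chr7:54200001-54300000, with 6 RUNX1 peaks, chr6:30500001-30600000, with 7, and chr2:78900001-79000000, with 0 RUNX1 peaks and 0 regions with all 4 factors. Whether the regions cluster beyond their density was not tested.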

How the data were processed

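The authors deposited 1 peak list per factor (chromosome, start, end, a name beginning with MACS, and a score). The submitters' processing notes name Bowtie, CASAVA (1.7.0, 1.8.2) and mm9. No source used here gives the caller's settings, its control or how replicates were combined. The deposited score has no stated definition. The lists held 45951 MyoD, 42134 c-Jun, 62456 MyoG and 42781 RUNX1 peaks. Against lengths from GenomeInfoDb 1.38.1, 0 peaks passed an mm9 chromosome end and 328 to 550 per list passed an mm10 end.

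Starts were converted to count from 1. Merging, score classes, distances and gaps were computed in Python 3.11.15 with numpy 2.4.6 and pandas 2.3.3, and checked on simulated lists. Score classes were cut at equal numbers of regions. Ranks in a list used all its peaks. No test was run, since no list separates samples. Members and rules were chosen with earlier results of these data known. Named regions were the 10 whose worst rank in the 3 lists was best, and 3 each with the smallest and largest gap to RUNX1. Added to these were 3 each with the most c-Jun or MyoD percentile relative to the other. The rest were 3 with the most peaks, and the 5 fullest windows of 100 kb. The available gene table is on another build, so genes, promoters, motifs and sequences were not used here.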

Additional observations from a re-analysis of the deposited data

Results flagged for a closer look

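Chromosome X, which the rule leaves out, held 92 regions with MyoD, c-Jun and MyoG and no RUNX1, of 1795 merged regions there (5.13%). They came up because they lie in data that the comparisons did not use. Their median scores were 309.545 for MyoD, 163 for c-Jun and 191 for MyoG. Of the regions with MyoD, c-Jun and MyoG on X, 54.4% lacked RUNX1, above the highest chromosome value of 37.7% on chromosomes 1 to 19. A RUNX1 peak lay within 10 kb of 15.2% of them. Per megabase there were 0.552 of these regions on X and 1.88 on chromosomes 1 to 19. The density of RUNX1 peaks on X, on which the share within 10 kb depends, was not compared. The difference from chromosomes 1 to 19 was not tested.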

How the results depend on the processing

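Each of 5 values (the number of regions, the 2 MyoD distances, the c-Jun score ratio to regions with all 4 factors, and the share within 10 kb of RUNX1) was recomputed under other settings, in 47 recomputations. Of these, 36 moved the value by at most the SD over 19 chromosomes, or the count by at most 1.5 times, and 11 moved it further. With centres within 150 bp there were 2733 regions, with medians of 37.5 bp from MyoD to MyoG and 49 bp from MyoD to c-Jun, which follows from the rule. In the stronger 50% of each list there were 2532 regions, the c-Jun ratio was 0.676 and the share near RUNX1 was 36.8%. A score minimum of 100 gave 0.622 and 43.2%. Without ceiling peaks and the widest 1% the c-Jun ratio was 0.634. The share near RUNX1 was 44.7% for regions with no RUNX1 peak within 1 kb, a drop that follows from the rule. It was 42.6% with RUNX1 peaks under a score of 100 taken as absent. That setting, the score minimum and the stronger 50% also thin the RUNX1 list, so lower shares follow at least in part from the rule. Other alternatives were a common base of the 3 peaks, an overlap of 50% of the shorter peak, chromosome X and the nearest pair of centres. The same alternatives for the MyoD and MyoG ratios, and regions with exactly 1 peak of each factor, were added after the values were seen. All 40 score ratios to regions with all 4 factors lay below 1, between 0.359 and 0.764. The MyoG ratio at a matched MyoD score lay between 0.494 and 0.666. The MyoD, MyoG and matched MyoG ratios moved by more than the SD in the same settings. These were the stronger 50%, the score minimum of 100, and the lists without ceiling peaks and the widest 1%. In that order, the MyoD ratio was 0.764, 0.680 and 0.733, and the matched MyoG ratio 0.666, 0.588 and 0.615.

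No paired analysis was possible because each factor has 1 list for both of its libraries, and leaving out a replicate was not run for the same reason. Depth is unknown, so a missing peak does not show absence of the factor. Gene and motif alternatives were not run without an annotation of the files' build.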

Other observations

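The RUNX1 region nearest to each RUNX1-free shared region was most often one with all 4 factors, for 28.3% of them, and next one with RUNX1 alone, for 22.2%. Among all regions with RUNX1, these classes made up 25.5% and 25.6%. The class with RUNX1, MyoD and c-Jun but no MyoG was the nearest for 3.34%, and makes up 2.25% of regions with RUNX1. These shares were chosen for report after they were seen and were not tested.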
